A study of Mus musculus with 4 samples.

Results

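A set of 9 transcription factors that give limb tissue its position, outside the Hox clusters, was followed through ageing of mouse muscle stem cells. They are the T-box genes Tbx2, Tbx3, Tbx4, Tbx5, Tbx15 and Tbx18, the paired-like homeobox gene Pitx1, and the TALE homeobox genes Meis1 and Meis2. The members are all probe sets that the platform annotation assigns to exactly 1 of these genes, which gave 23 probe sets for 9 genes, out of 34945 probe sets for 18193 genes. The genes were picked by function, with the age differences of these same arrays already known, so the age differences of the 9 are given as a description and without a test.

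Satellite cells lie on the surface of muscle fibres and rebuild muscle after injury. They came from hindlimb muscle of C57BL/6J mice and were sorted by flow cytometry for the surface proteoglycan syndecan-4. Aged mice were 20 to 25 months old and young mice 3 to 6 months old, with 2 pools of mice and 2 arrays per age and no other treatment named in the labels. Mice were pooled before the sort, 4 to 8 per pool by the series text and 6 to 8 by the sample text, so the spread between pools is the only error measured. By its title, the study asked how p38 signals relate to a failing self-renewal of stem cells in old muscle.

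T-box proteins share a DNA-binding domain named after Brachyury. In vertebrate embryos Tbx5 marks the forelimb bud, whereas Tbx4 and its upstream activator Pitx1 mark the hindlimb bud. Tbx2 and Tbx3 are repressors that pattern the limb along its anterior to posterior axis, and Tbx15 and Tbx18 are a closely related pair expressed in limb and trunk mesenchyme. Meis1 and Meis2 bind DNA together with Pbx and Hox proteins and mark the part of the limb nearest the trunk. In adult mouse muscle, Tbx15 is known from fast glycolytic fibres.

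Values were taken as log2 and are centred, each probe set on its median over the 4 arrays, so 0 marks that median and only differences between arrays can be read. A higher value is taken to mean more RNA. No level can be given, and it cannot be seen from them whether a factor, or a defining marker such as Pax7, was expressed at all. A small difference may therefore belong to a transcript that the array barely detected. Across all genes, 0 of 18193 passed an adjusted p of 0.05 between ages with limma, while 1645 had an unadjusted p under 0.05.

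Tbx15 stood apart from the other 8 factors. It was 12.7-fold lower in aged cells (log2 difference, aged minus young, -3.67 ± 0.36, SE of the limma fit, n = 2 pools per age). The other 8 had differences from -0.20 to 0.52. Their median size was 0.32, against 0.37 over all genes.

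Probe set 1418755_at of Tbx15 read -1.46 and -2.64 in the aged pools, against 2.44 and 1.46 in the young pools. Probe set 1422195_s_at read -2.28 and -1.29 in the aged pools, against 1.29 and 1.81 in the young pools. On both, each aged pool lay below each young pool, with differences of -4.00 ± 0.63 (16.0-fold) and -3.34 ± 0.53 (10.1-fold). The 2 probe sets ordered the pools of 1 age differently, since aged 2 was the lowest on the first and aged 1 on the second. Averaged over both, Tbx15 read -1.87 and -1.97 in the aged pools, against 1.87 and 1.64 in the young pools. The aged pools were then 0.10 apart and the young pools 0.23 apart. Only 44 of the 18193 genes, Tbx15 included, had a difference as low as that of Tbx15 or lower, which is 0.242% of them. The difference was -3.74 between the pools numbered 1 and -3.60 between those numbered 2, and it ran from -3.78 to -3.55 when any 1 pool was left out. In pooled cells, fewer cells that make Tbx15 and less Tbx15 RNA per cell cannot be told apart.

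**Figure D1:**
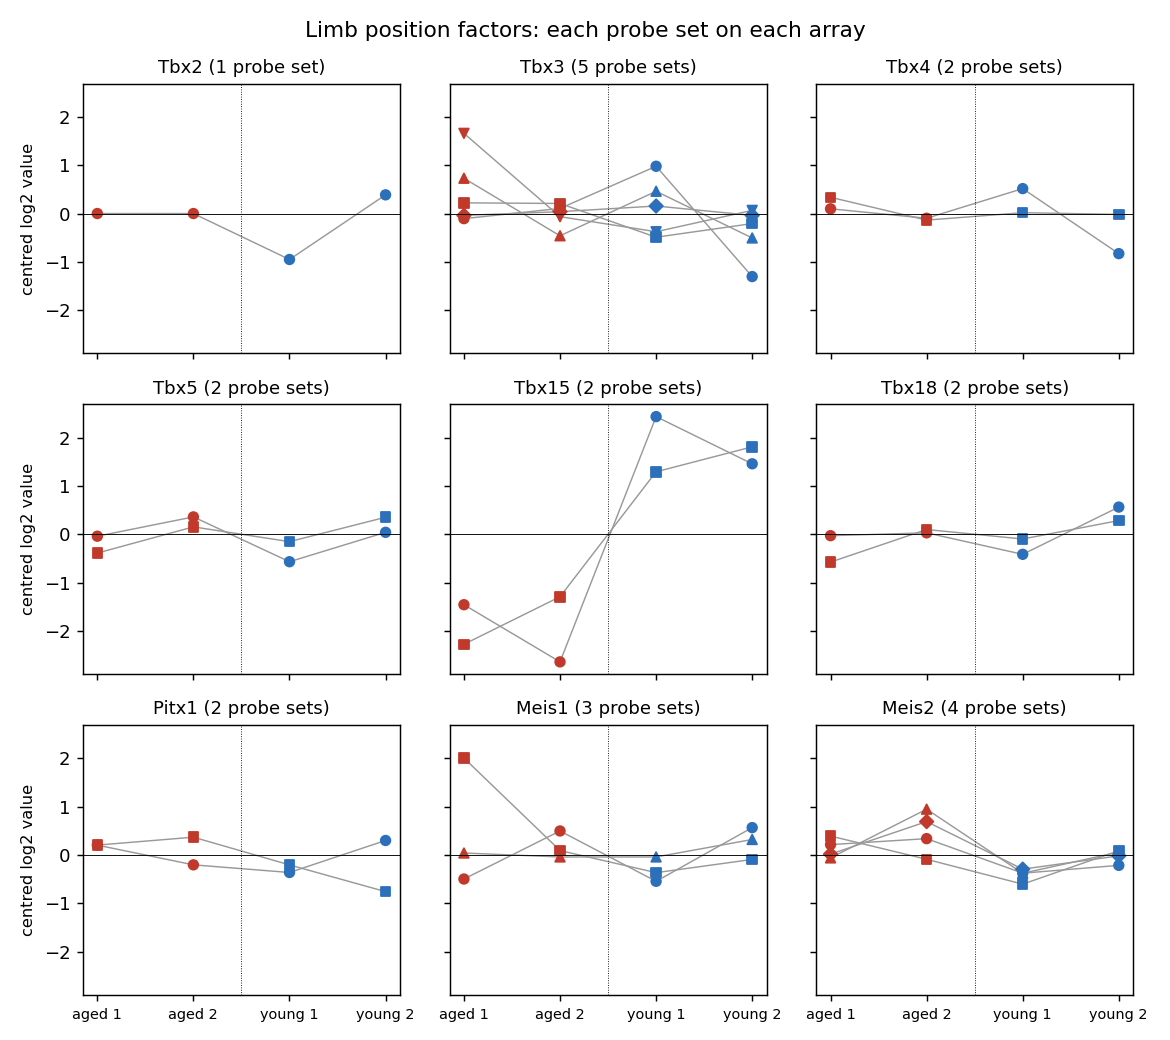
Centred log2 value of every probe set of the 9 factors on each array, with aged pools in red and young pools in blue, 1 marker shape and line per probe set within a panel. Both Tbx15 probe sets lie at or below -1.29 in aged pools and at or above 1.29 in young pools, while 16 of the other 21 probe sets overlap between ages.

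Of the 9 factors, 1 (Tbx15) had both aged pools below both young pools, 2 (Pitx1 and Meis2) had both above, and 6 overlapped. Ages did not overlap in 36.8% of all genes, so 3 of 9 is near the background. Among probe sets, 2 lay below, 5 above and 16 overlapped, where 33.8% of all probe sets did not overlap. Only Tbx15 differed by 2-fold or more, as 14.6% of all genes did in either direction. For 6 of the other 8 factors, the pools of one age lay farther apart than the ages did.

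The factors of hindlimb identity differed little in these hindlimb cells. Tbx4 read 0.22 and -0.12 in the aged pools, against 0.27 and -0.42 in the young pools (difference 0.13 ± 0.42). Its ages overlapped, with 1 young pool above both aged pools and 1 below both. Pitx1 read 0.20 and 0.08 in the aged pools, against -0.28 and -0.23 in the young pools (0.40 ± 0.36). Its 2 probe sets disagreed in size. On 1419514_at the aged pools, at 0.21 and 0.37, were above the young pools, at -0.21 and -0.76 (0.77 ± 0.43). On 1449488_at the aged pools read 0.20 and -0.20, the young pools read -0.36 and 0.30, and the difference was 0.031 ± 0.46.

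Tbx5, the forelimb factor, read -0.21 and 0.26 in the aged pools, against -0.36 and 0.20 in the young pools. The pools of either age lay farther apart than the ages, whose difference was 0.10 ± 0.42. Its probe sets pointed opposite ways, 1425695_at at 0.42 ± 0.45 and 1425694_at at -0.22 ± 0.45.

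For the repressors Tbx2 and Tbx3, the pools of 1 age lay farther apart than the ages did. Tbx2, with 1 probe set, read 0 in both aged pools, against -0.95 and 0.39 in the young pools. The young pools lay on either side of the aged ones, so the difference of 0.28 ± 0.54 became -0.39 without young replicate 1 and 0.95 without young replicate 2. Tbx3 had 5 probe sets and averaged 0.49 and -0.035 in the aged pools, against 0.15 and -0.40 in the young pools (0.36 ± 0.42). On 1448029_at the aged pools read 1.66 and -0.065, with the young pools at -0.38 and 0.065, so its difference of 0.95 ± 0.70 came from aged 1. On 1445757_at the young pools themselves lay 2.29 apart, at 0.98 and -1.31, on either side of the aged pools at -0.11 and 0.11. Leaving out young replicate 2 gave 0.084 for Tbx3 and leaving out aged replicate 1 gave 0.092, against 0.63 and 0.62 without the other pool of that age. Of its 5 probe sets only 1439567_at separated the ages, with 0.22 and 0.21 in the aged pools and -0.49 and -0.21 in the young pools.

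Tbx18, the T-box gene most like Tbx15, did not share its pattern. It read -0.30 and 0.064 in the aged pools, against -0.26 and 0.42 in the young pools, and the ages overlapped (-0.20 ± 0.42). Its probe sets were at -0.074 ± 0.50 for 1429974_at and -0.33 ± 0.46 for 1449871_at. Tbx18 is also known from mural cells of vessels. Of 14 pericyte and smooth muscle markers, 13 had a positive difference, as 53.8% of all genes did. In 8 both aged pools lay above both young pools, in 1 (Des) below, and 5 overlapped. Over all genes, ages did not overlap in 36.8%. With limma 3 had an unadjusted p under 0.05, all higher, where 9.04% of all genes had one, and 0 passed the adjusted threshold. Des and Notch3 are also counted among the satellite cell markers below. The pericyte and smooth muscle list had medians of 0.37 and 0.25 in the aged pools and -0.29 and -0.20 in the young pools.

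Meis2 had the largest positive difference of the 9. It read 0.14 and 0.47 in the aged pools, against -0.41 and -0.021 in the young pools (0.52 ± 0.39, 1.44-fold higher). All 4 of its probe sets were higher in aged cells on average, by 0.41 to 0.60, and on 2 of them the ages overlapped. Of all genes, 36.2% had a difference at least as large in size. Meis1 read 0.52 and 0.18 in the aged pools, against -0.32 and 0.27 in the young pools, and its ages overlapped (0.38 ± 0.41). Most of that came from 1 probe set. On 1459423_at aged 1 stood at 2.01 and aged 2 at 0.092, with the young pools at -0.37 and -0.092 (1.28 ± 0.74), whereas 1450992_a_at and 1443260_at differed by -0.011 ± 0.62 and -0.14 ± 0.40. Without aged replicate 1 Meis1 stood at 0.21, without young replicate 1 at 0.085 and without young replicate 2 at 0.67.

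**Figure D2:**
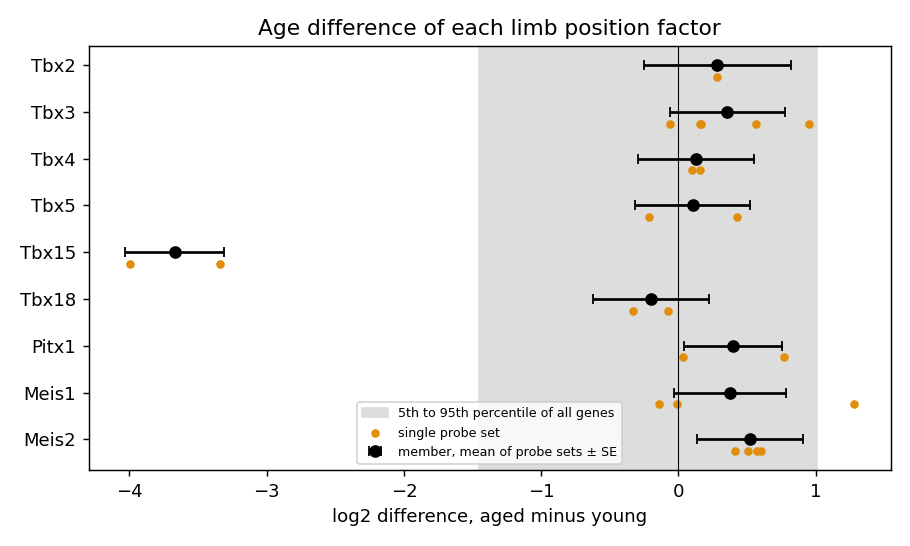
Log2 difference, aged minus young, of each factor (black, mean of its probe sets ± SE of the limma fit, n = 2 pools per age) and of each probe set (orange), over the span from the 5th to the 95th percentile of all genes, -1.46 to 1.01 (grey). Tbx15 at -3.67 lies outside the span, and those of the other 8 lie inside it.

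In the mouse genome Tbx2 lies beside Tbx4, and Tbx3 beside Tbx5, which are pairs known to come from an ancient duplication. By the order of genes in the GRCm38.p6 annotation, each member of these pairs was the nearest measured gene of the other. No shift common to a pair exceeded its standard errors, with 0.28 ± 0.54 and 0.13 ± 0.42 for Tbx2 and Tbx4 and 0.36 ± 0.42 and 0.10 ± 0.42 for Tbx3 and Tbx5. The nearest measured genes on either side of Tbx15 were Wars2, a mitochondrial tryptophanyl-tRNA synthetase, and Spag17, a ciliary protein. Neither was lower in aged cells. Wars2 read 0.038 and 0.53 in the aged pools, against -0.038 and -0.43 in the young pools (0.52 ± 0.40, adjusted p = 0.833 with limma). Spag17 read 0.0096 and 0.35 in the aged pools, against -0.38 and -0.052 in the young pools (0.39 ± 0.38, adjusted p = 0.878 with limma).

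Averaged over probe sets, no gene of the related families listed differed by as much as Tbx15, their differences running from -2.28 to 1.20. Single probe sets of these genes ran wider, from -3.48 to 1.90. The lowest, of Prrx1, was below the -3.34 of Tbx15 probe set 1422195_s_at. In 5 lists of other T-box, other TALE, other paired-like, limb patterning and embryonic muscle progenitor genes, 83 of 89 listed genes were measured. With limma, 0 of the 83 passed the adjusted threshold, and 3 had an unadjusted p under 0.05, 1 higher and 2 lower in aged cells. Over all genes 9.04% had such a p, so 3 of 83 is not more than the background. The count was 6 without aged replicate 2 and 5 without either young replicate. Their median difference was 0.076, against 0.050 over all genes.

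Tbx1, a T-box gene of the pharyngeal and head muscle field, was lower in aged cells. It read -0.72 and -1.64 in the aged pools, against 1.50 and 0.72 in the young pools (-2.28 ± 0.51, adjusted p = 0.234 with limma). Both aged pools were below both young pools, on its only probe set. The other measured T-box genes had differences from -0.49 to 0.95, the highest that of Eomes, a factor of early embryos and lymphocytes (0.95 ± 0.46, adjusted p = 0.650 with limma). In all, 5 of the 9 other T-box genes had a positive difference. Their median was 0.086, and -0.20, 0.27, -0.055 and 0.040 without young replicate 1, young replicate 2, aged replicate 1 and aged replicate 2, so it has no stable sign.

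Of the other TALE genes, none passed the adjusted threshold. Pknox2, a TALE factor that pairs with Pbx proteins, read -1.14 and -0.59 in the aged pools, against 0.81 and 0.28 in the young pools (-1.41 ± 0.42, adjusted p = 0.382 with limma). The ages did not overlap, although its 2 probe sets differed from each other, at -2.35 and -0.48. Its paralogue Pknox1 was at 1.19 ± 0.70, with aged 1 at 1.59 and aged 2 at -0.34, against -0.32 and -0.82 in the young pools, and stood at 0.23 without aged replicate 1 and 2.16 without aged replicate 2. Pbx2 (-0.27 ± 0.76) and Pbx3 (-0.29 ± 0.41), partners of the Meis proteins, and the paralogue Meis3 (0.15 ± 0.93) had differences below their standard errors and overlapping ages. With 1 pool left out Meis3 lay between -1.13 and 1.42, below 0 without aged replicate 1 or young replicate 2, and Pbx2 between -1.23 and 0.68, above 0 without young replicate 1 or aged replicate 2.

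Among paired-like genes, Pitx3, a relative of Pitx1 expressed in skeletal muscle, was at 0.80 ± 0.43. Prrx1, a marker of limb mesenchyme, was at -0.92 ± 0.48, but its 6 probe sets ran from -3.48 to 1.10. Shox2, a factor of the proximal limb, was at -0.37 ± 0.42. None of the 7 measured had an unadjusted p under 0.05.

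Of the 35 limb patterning genes, 21 had a positive difference, where 53.8% of all genes did. Their median of 0.16 was 0.069 without young replicate 1, 0.35 without young replicate 2 and 0.030 without aged replicate 2. Cyp26b1, an enzyme that degrades retinoic acid and so sets the domain in which Meis genes are active in the limb bud, had the only unadjusted p under 0.05. It read 0.75 and 0.38 in the aged pools, against -0.91 and -0.38 in the young pools (1.20 ± 0.40, adjusted p = 0.445 with limma). The muscle progenitor genes had a median of -0.18, with a positive difference in 5 of 17. It was -0.035 without young replicate 1, -0.0034 without aged replicate 1 and -0.27 without aged replicate 2. Pax3 (-0.10 ± 0.36) and Lbx1 (-0.18 ± 0.52), which mark progenitors that migrate into the limb, had overlapping ages. Lbx1 was 0.47 without young replicate 1 and -0.83 without young replicate 2.

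**Figure D3:**
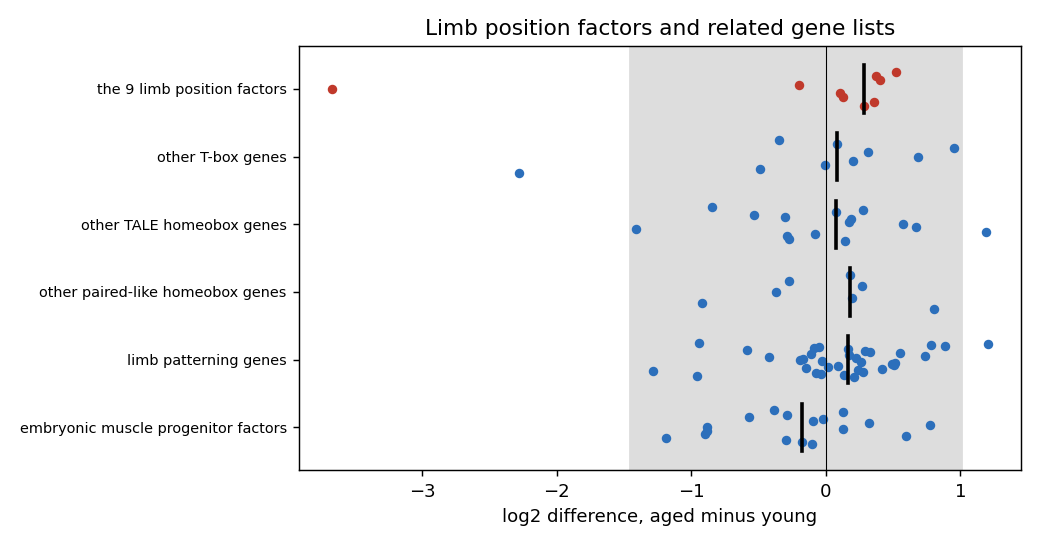
Log2 difference, aged minus young, of each of the 9 factors (red) and of each measured gene in 5 related lists (blue), 1 point per gene, with the list's median as a black bar and the 5th to 95th percentile span of all genes in grey. Tbx15 is the leftmost point at -3.67, followed by Tbx1 at -2.28, and the list medians lie between -0.18 and 0.28.

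Because Tbx15 is known from muscle fibres, its values were set beside markers of the cell types that a sort from muscle could hold. All 24 mature fibre markers were lower in aged cells, with a median difference of -2.92. Their medians over the list were -1.66 and -1.37 in the aged pools, against 1.29 and 1.44 in the young pools, and in 23 of the 24 both aged pools were below both young pools. With limma 23 had an unadjusted p under 0.05 and 0 passed the adjusted threshold. Over all genes, ages did not overlap in 36.8%, and 9.04% had such an unadjusted p. The first 3 of the list were the skeletal actin Acta1 (-2.87 ± 0.38), the creatine kinase Ckm (-3.57 ± 0.71) and the fast myosin Myh1 (-2.45 ± 0.38). The difference of Tbx15 lay inside the range of these markers, from -4.60 to -1.46, and 7 of the 24 had a more negative one.

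The 11 genes of fast fibres had a median of -2.45, but all of them are among the 24 and add no separate evidence. Of 11 slow fibre genes, chosen after the values of Tbx15 were seen and none of them among the 24, 7 had both aged pools below both young pools and 4 overlapped, with a median difference of -1.46. The part of fibre RNA in the difference of Tbx15 was not tested, and an amount of fibre RNA cannot be read from centred values.

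Satellite cell markers differed both ways, from -0.88 to 2.56 over 16 genes. Both aged pools lay above both young pools in 5 and below in 1, and with limma 2 had an unadjusted p under 0.05, both higher, with 0 past the adjusted threshold. Over all genes, ages did not overlap in 36.8% and 9.04% had such a p, so both counts are near the background. The list's median of -0.073 has no stable sign, being 0.0086, 0.10 and 0.044 without young replicate 1, young replicate 2 and aged replicate 2. Pax7, which marks satellite cells, read 1.08 and 0.90 in the aged pools, against -1.39 and -1.24 in the young pools (2.31 ± 0.36, adjusted p = 0.150 with limma). Its age difference was opposite in direction to that of Tbx15. Myf5, a regulator that marks committed satellite cells, had the highest difference of the list (2.56 ± 0.63, adjusted p = 0.288 with limma). Myod1, next in the list, was at 0.12 ± 0.45 with overlapping ages. Sdc4, the protein of the sort, was at 1.22 ± 0.53 with both aged pools above the young pools. Des, at -0.88 ± 0.38, was the 1 gene with both aged pools below both young pools. In all, 8 of the 16 had a positive difference and 8 a negative one. Fibro-adipogenic and connective tissue markers, from the mesenchymal cells in which several of the 9 factors are known, had a median of 0.71. Of the 16 genes, 14 had a positive difference, 8 of them with ages that did not overlap, against 36.8% of all genes. With limma 3 had an unadjusted p under 0.05, against 9.04% of all genes, and 0 passed the adjusted threshold. The first 3 measured were Pdgfra (-0.055 ± 0.36), Dcn (0.90 ± 0.39) and Lum (1.28 ± 0.65). Medians were -0.997 for macrophage markers and 0.82 for lymphocyte markers. Of 12 macrophage markers, 10 had a negative difference, and the range was from -2.42 to 0.35. In 8 of them both aged pools lay below both young pools, the direction of Tbx15, and 4 overlapped. With limma 4 had an unadjusted p under 0.05, all lower. Of 12 lymphocyte markers, 11 had a positive difference, but the range was from -3.90 for Gzma to 4.15 for Cd3g. Both aged pools lay above both young pools in 8 and below in 1. With limma 5 had an unadjusted p under 0.05, 4 higher and 1 lower. In either list 0 passed the adjusted threshold. Schwann cell markers had a median of 0.91, and 0.48 without aged replicate 1. The endothelial median was -0.37, and -0.020 without aged replicate 2. The tendon median of -0.084 became 0.21 without young replicate 2, 0.12 without aged replicate 1 and -0.36 without young replicate 1.

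**Figure D4:**
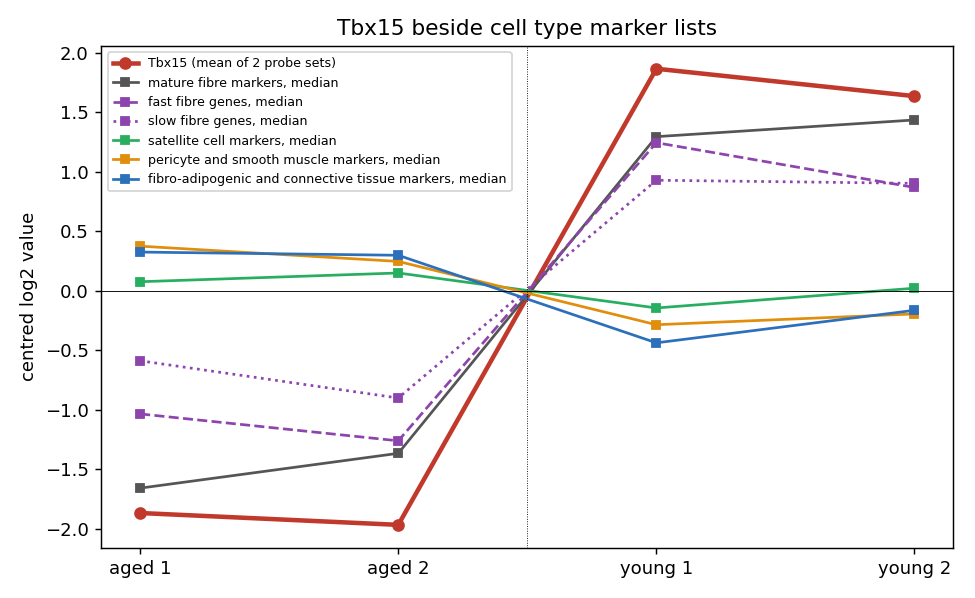
Centred log2 value on each array of Tbx15 (red, mean of its 2 probe sets) and the median over each of 6 marker lists. Tbx15 at -1.87 and -1.97 in the aged pools and 1.87 and 1.64 in the young pools lies on the same side of 0 as the mature, fast and slow fibre medians in each pool, and the satellite cell median stays between -0.15 and 0.15. The macrophage medians, not drawn, lie on the side of Tbx15 too, at -0.67 and -0.27 (aged) and 0.48 and 0.32 (young). So do the endothelial medians, also not drawn, at -0.067 and -0.39 (aged) and 0.36 and 0.080 (young).

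The genes nearest to Tbx15 in pattern were found by the root mean square distance between centred values over the 4 arrays. Closest was Ppp1r3c, which targets protein phosphatase 1 to glycogen, at a distance of 0.0975. It read -1.68 and -1.93 in the aged pools, against 1.82 and 1.66 in the young pools. Next were Aamdc, at 0.156, and Myf6, the myogenic regulator most abundant in mature fibres, at 0.163. Myf6 is among the 24 mature fibre markers above and adds no separate evidence. Myf6 read -1.82 and -2.19 in the aged pools, against 2.01 and 1.82 in the young pools. Within a distance of 0.5 there were 58 genes for Tbx15, but 9719 for Meis2 and 10407 for Pitx1. At a fixed distance these counts mainly follow the size of the age difference, since most genes differ little. The nearest genes of Meis2 (Rbm46os, Mycl and Cst12, at 0.0484 to 0.0497) and of Pitx1 (Sebox, Gpbp1 and Slc12a3, at 0.0328 to 0.0384) single out no pattern, as 53.4% and 57.2% of all genes lay within 0.5 of Meis2 and Pitx1.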

How the data were processed

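RNA of 2 aged and 2 young pools of sorted satellite cells was hybridised to Affymetrix arrays after 2 rounds of linear T7 amplification and biotin labelling, per the labels' protocols. The deposited values were taken as log2 from their range, with both signs and a median of 0 within 5e-07 for every probe set. The base, background correction, probe summary, normalization between arrays and the direction of the values (taken as higher means more RNA) are not stated by the labels. The array medians were -0.01 and 0.05 for the aged pools and -0.07 and 0.03 for the young pools. Because no levels remain, no filter on dim probe sets could be applied, and every member is reported.

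Of 45101 probe sets, 64 were controls, 34945 carried 1 gene symbol in the platform annotation, 932 several and 9160 none. Gene values rest on those with 1 symbol. Symbols were updated by Entrez ID to GRCm38.p6, where 34741 matched. Probe sets of 1 gene were averaged. The ages were set against each other in limma 3.58.1 under R 4.3.3 (lmFit, then eBayes without a variance trend, two-sided, Benjamini-Hochberg over 18193 genes or 45037 probe sets, 2 pools per age), and SEs come from that fit. The fit was tested on simulated data with known changes. P-values and SEs rest on the spread between pools, which limma draws towards the spread shared by all genes. They are therefore not the spread of that gene's own pools alone. Pitx1, for example, had SDs of 0.086 between aged and 0.039 between young pools, but an SE of 0.36. The 2 pools per age limit the precision.

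All members with all probe sets are named. From the related lists, up to 3 genes per direction at an unadjusted p under 0.05 and a fixed set of partners are named. The first 3 measured genes are named from the mature fibre, satellite cell and connective tissue marker lists. The other marker lists are given by values of the whole list. For Tbx15, Meis2 and Pitx1, which differed most in size, the 3 genes nearest in pattern are named. Eomes, Sdc4, Des, Notch3, Gzma and Cd3g were named after their values were seen, and the comparison with chromosomal neighbours was added then too. The members and lists were chosen with earlier results of these data known. Alternatives were quantile normalization, centring of arrays, other ways to 1 value per gene, leaving out probe sets ending in _x_at or _s_at, the replicate number as a block, a variance trend, and leaving out each pool.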

Additional observations from a re-analysis of the deposited data

How the results depend on the processing

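Tbx15 kept its direction under all 10 alternatives run for it, with log2 differences from -4.00 to -3.49. Most of them could not have changed it. As its ages did not overlap, leaving out 1 pool keeps the sign. The replicate block and the median of its 2 probe sets give the reported value by construction. Its most variable probe set is also the one kept without _x_at and _s_at, 1418755_at (-4.00). Quantile normalization gave -3.49 and centring of arrays -3.71. Over the 9 factors, 6 of 90 values under alternatives had the opposite sign to that reported, all 6 without 1 pool and in Tbx2, Tbx4, Tbx5 and Tbx18. The count of factors at least 2-fold apart was 1, and 2 when each gene was read from its most variable probe set, where Meis1 reached 1.28. It remained 1 whichever pool was left out. In the related lists 3 genes had an unadjusted p under 0.05. There were 5 in that reading, and 3 to 6 when 1 pool was left out (5 without young replicate 1, 5 without young replicate 2, 3 without aged replicate 1 and 6 without aged replicate 2). Medians of the related lists moved by over 1.5 times without 1 pool or another. For the T-box, limb patterning and muscle progenitor lists, such values stand beside the medians. The median of the other TALE genes, 0.076, ran from -0.042 to 0.24 without 1 pool. That of the other paired-like genes, 0.18, ran from -0.33 to 0.14, so neither has a stable sign. The lone pool of an age is then assumed to vary like the others. Over all genes 0 passed the adjusted threshold and 221 did with a variance trend, as did 199 probe sets against 0, but on centred values that trend does not follow expression. Leaving out 1 pool gave 1205 to 1662 genes and 2523 to 3717 probe sets at an unadjusted p under 0.05, against 1645 and 3286. With the replicate number as a block, the related lists held 4 such genes and all genes 1768, while the differences themselves are the same by construction. Over genes the deviations of same-numbered pools correlated at 0.138, and nothing in the labels says that a number marks a shared day or batch, so the pools were not taken as pairs. Arrays can show only differences, and 2 pools per age limit what they resolve.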
